A study of Mus musculus with 12 samples.

Results

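The secreted Wnt antagonists are proteins that cells release to hold back Wnt signalling outside the cell. The 10 genes described here were chosen by name: the secreted frizzled-related protein genes Sfrp1, Sfrp2, Sfrp4 and Frzb, the Dickkopf genes Dkk1, Dkk2 and Dkk3, and Wif1, Sost and Sostdc1. All 10 are among the 54134 genes of the count table, and 8 of them passed the filter on low counts that left 15585 genes for testing. RNA-seq of inguinal white adipose tissue (iWAT, the subcutaneous fat of the groin) was available from 12 male C57BL/6J mice on a chow diet. Each mouse received 1e12 genome copies of an adeno-associated virus (AAV) through the tail vein at 8 weeks of age, and tissue was taken 4 weeks later, after a fast of 4 h. The virus carried green fluorescent protein (GFP) in the 6 AAV-GFP mice and mouse Notum in the 6 AAV-Notum mice. A human thyroxine binding globulin promoter drove either gene in the liver, so the transgene was directed to another organ than the fat that was sequenced. NOTUM is itself a secreted Wnt inhibitor, and the comparison asks whether the iWAT of mice with more of it differed in its own antagonist transcripts.

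Wnt proteins bind a Frizzled receptor together with the co-receptor LRP5 or LRP6, and in the canonical pathway this stabilises β-catenin. The antagonists act at different points of that complex. Secreted frizzled-related proteins (SFRPs) carry a Frizzled-like domain and bind Wnt proteins, as does WIF1. DKK1, DKK2 and sclerostin, the product of Sost, bind LRP5 and LRP6 and so block the co-receptor, and SOSTDC1 binds LRP6 and bone morphogenetic proteins. NOTUM removes the lipid that Wnt proteins need for binding to Frizzled. Canonical Wnt signalling restrains the formation of fat cells.

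RefSeq gives a window of 250 bases before the gene start for 6 of the 10 antagonist genes (GRCm38.p6). The windows of Sfrp2, the most abundant of the 10 per exon length, and of Dkk2 and Wif1, which had a lower and a higher mean in AAV-Notum mice, are shown as far as they lie outside the annotated transcripts. Each reads 5′ to 3′ on the plus strand, which is the strand of the gene. The window of Sfrp2 is chr3:83766071-83766320, that of Dkk2 is chr3:132085042-132085291 and that of Wif1 is chr10:121033754-121033959. Capitals mark TATAAA, the core of a TATA box, which for Wif1 lies on the other strand and is read as TTTATA.
Sfrp2: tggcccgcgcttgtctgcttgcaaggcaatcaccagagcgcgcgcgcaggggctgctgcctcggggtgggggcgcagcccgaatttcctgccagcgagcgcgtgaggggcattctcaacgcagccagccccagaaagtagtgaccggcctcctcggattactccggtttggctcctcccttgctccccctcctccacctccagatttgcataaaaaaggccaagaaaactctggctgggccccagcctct
Dkk2: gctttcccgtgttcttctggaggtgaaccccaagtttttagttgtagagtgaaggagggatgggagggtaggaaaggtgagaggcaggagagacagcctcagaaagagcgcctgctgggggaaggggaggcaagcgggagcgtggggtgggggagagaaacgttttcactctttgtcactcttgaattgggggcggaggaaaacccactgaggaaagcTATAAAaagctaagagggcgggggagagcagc
Wif1: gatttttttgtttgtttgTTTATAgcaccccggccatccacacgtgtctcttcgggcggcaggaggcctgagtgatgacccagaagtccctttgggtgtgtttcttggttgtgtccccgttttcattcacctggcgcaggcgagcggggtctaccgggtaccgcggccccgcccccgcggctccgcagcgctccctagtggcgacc
The window of Dkk2 is the poorest in G and C of the 3 (55.6%, against 63.6% for Sfrp2 and 61.7% for Wif1). TATAAA on either strand was found in 3 of the 6 member windows, those of Dkk1, Dkk2 and Wif1, and in 12.4% of all 32851 RefSeq windows of 250 bases. The letters that TCF and LEF factors, the partners of β-catenin on DNA, are known to bind were searched as CTTTGAA and CTTTGAT on either strand. These do not overlap TATAAA and are held by 4.46% and 3.21% of all windows. Only the window of Dkk1, a known target of β-catenin, held CTTTGAA, and none of the 6 held CTTTGAT. A match is a description of letters and not of a site in use.

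The libraries held 14711113 to 21618860 counted reads per mouse, so 3 reads of a gene corresponded to 0.138 to 0.199 CPM (counts scaled to a TMM-normalized library of 1000000 reads). RNA integrity numbers ran from 5.7 to 7.6 in AAV-GFP mice and from 6.9 to 7.4 in AAV-Notum mice, and the RNA of AAV-GFP-2012 was isolated on another day than the rest. Without that mouse, and so within 1 isolation day, the log2 fold changes of Sfrp1, Dkk2, Dkk3 and Wif1 described below were -0.51, -0.46, 0.70 and 0.72 (edgeR). Notum, the gene delivered by the virus, was at 29.3 CPM in AAV-Notum-2032 and 26.6 CPM in AAV-Notum-2041, at 0.457 to 0.905 CPM in the other 4 AAV-Notum mice and at 0.0595 to 0.995 CPM in AAV-GFP mice. The sums of the 8 hepatocyte markers in AAV-Notum-2032 and AAV-Notum-2041, 149 and 830 CPM, were the highest among AAV-Notum mice, in which the others lay between 19.5 and 48.6 CPM. AAV-GFP mice held 45.5 to 5820 CPM of them, most in AAV-GFP-2013, and all 8 had a negative log2 fold change (median -2.82, 2 at an unadjusted p under 0.05 by edgeR). Fgb was at 0 reads in AAV-GFP-2011, and Apob, Cyp3a11 and Ttr were in AAV-Notum-2042. The level of Notum in iWAT therefore separates the groups in 2 mice only and is no check of the liver. The 8 adipocyte markers were high in every mouse (mean log2 CPM 10.5 to 11.7), and 7 of the 8 had a negative log2 fold change (median -0.29, none at an unadjusted p under 0.05 by edgeR). They summed to 25240.5 to 42534 CPM in the AAV-GFP group and to 21833 to 49601 CPM in AAV-Notum mice. Of the 10 markers of adipose fibroblasts and progenitors, 8 had a negative log2 fold change (median -0.28). By edgeR 4 of these, Pdgfra, Col1a1, Col3a1 and Dcn, were lower at an unadjusted p under 0.05, beside 9.54% of all genes. Ly6a and Dpp4 were on the positive side (0.28 and 0.65), neither past that threshold. The 10 markers summed to 4228 to 7028 CPM in the AAV-GFP group and to 3551 to 4552 CPM in AAV-Notum mice. Of 6 tested markers each, 5 endothelial, 3 mural and smooth muscle, 3 macrophage and 6 Schwann cell genes had a negative log2 fold change. Of these 1, 1, 2 and 0 were lower at the same threshold, and 0 markers were higher. The part of these cell types in the Sfrp1, Dkk2, Frizzled and co-receptor values given below was not tested. The 8 skeletal muscle markers summed to 8.38 to 802 CPM in the AAV-GFP group and to 7.07 to 3754 CPM in the AAV-Notum group, with Actn3 and Ckm at 0 reads in AAV-Notum-2034. The 15 lymphoid genes summed to 10.5 to 1734 CPM in the AAV-GFP group and to 552 to 2318 CPM in AAV-Notum mice, no marker was at 0 reads in any mouse, and AAV-GFP-2011, AAV-GFP-2012 and AAV-GFP-2014 were the lowest with 18.7, 278 and 10.5 CPM. All 15 had a positive log2 fold change (AAV-Notum over AAV-GFP), none at an unadjusted p under 0.05.

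No secreted Wnt antagonist passed the test between AAV-Notum and AAV-GFP mice after adjustment for multiple testing. By edgeR's quasi-likelihood test, 0 of the 8 tested members had an adjusted p under 0.05, where 0.0513% of all genes tested did. DESeq2 called 0 of the 6 members to which it gave an adjusted p, beside 3.47% of all genes with one, and limma-voom called 0 of the 8, beside 0.0385%. At an unadjusted p under 0.05, 1 member (Sfrp1) was lower in AAV-Notum mice, beside 9.54% of all genes, and 0 were higher, beside 4.64% of all genes. The median log2 fold change of the 8 members was 0.01, as was that of all genes, with 3 members on the negative and 5 on the positive side. The groups overlapped for each of the 8, whereas 1.09% of all genes tested had groups that did not. The fitted fold (AAV-Notum over AAV-GFP) lay between 0.994 and 1.12 for Sfrp2, Sfrp4, Frzb and Sostdc1. It was 0.710 for Sfrp1 and 0.729 for Dkk2, and 1.76 for Dkk3 and 1.86 for Wif1. In bulk tissue, fewer cells of a type and less RNA per cell cannot be told apart.

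**Figure D1:**
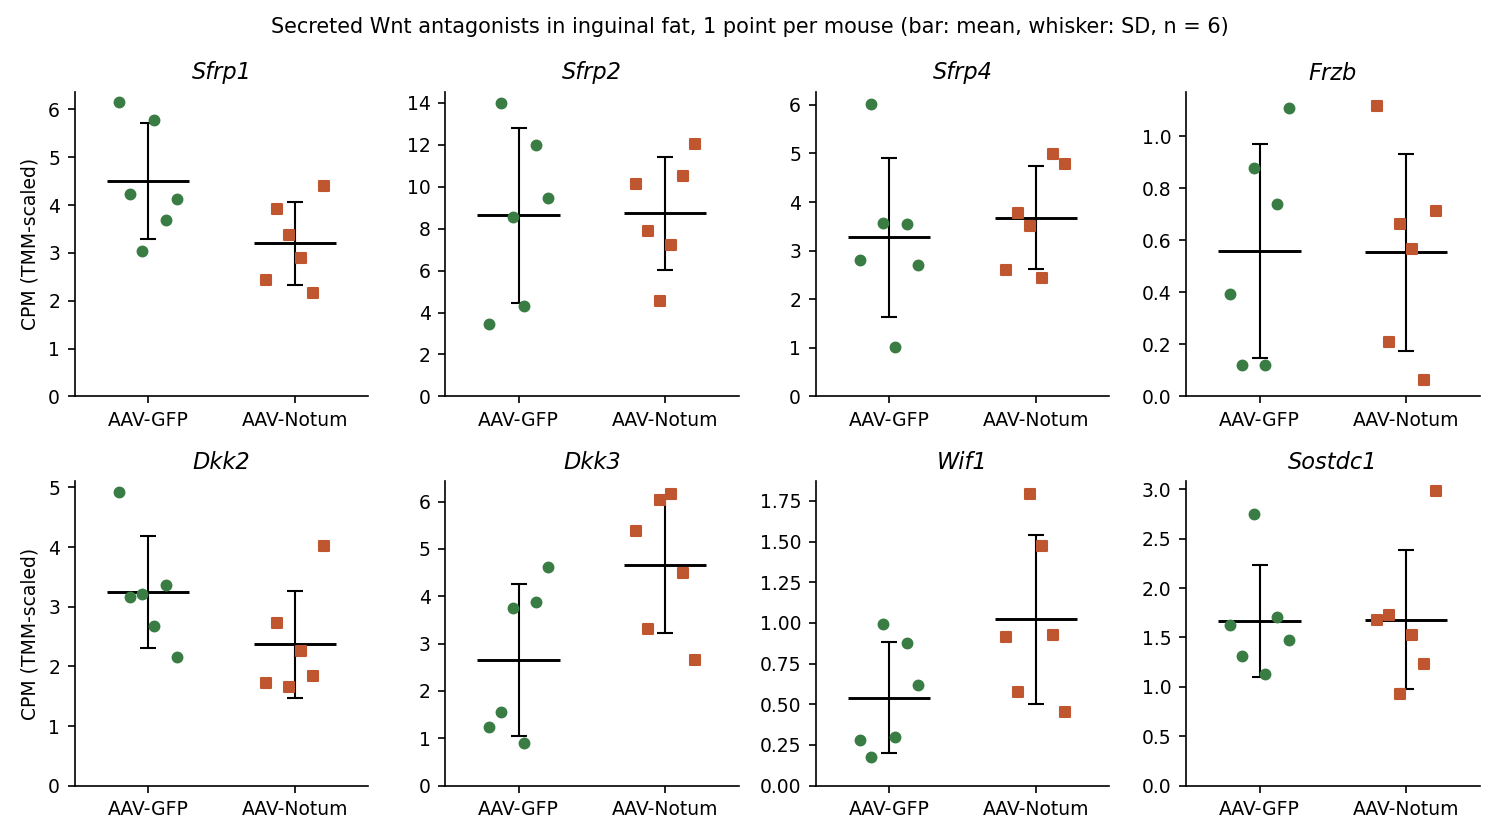
CPM (vertical axis, counts scaled to a TMM-normalized library) of the 8 tested antagonists in 6 AAV-GFP and 6 AAV-Notum mice, with 1 point per mouse, the group mean as a horizontal bar and the SD as a whisker. The groups overlap in every panel; 3 AAV-GFP mice lie at 0.894 to 1.55 CPM for Dkk3, below all other mice.

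Among the SFRP genes, Sfrp1 was the only member past the unadjusted threshold. Sfrp1 (ENSMUSG00000031548, chromosome 8 of GRCm38, 23411502 to 23449632) encodes a frizzled-related protein that binds Wnt proteins. Its level in AAV-GFP mice ran from 3.04 to 6.16 CPM with a median of 4.18, and in AAV-Notum mice from 2.15 to 4.40 CPM with a median of 3.13. Each of the 6 mice given Notum had less Sfrp1 than the mean of the AAV-GFP group and 3 had less than its lowest mouse, so the ranges overlapped. The means were 4.51 ± 1.22 CPM (SD, n = 6) and 3.20 ± 0.87 CPM (SD, n = 6). This was a log2 fold change of -0.49 with a standard error of 0.22 and a 95% interval of -0.98 to -0.0066. edgeR gave p = 0.0474 and an adjusted p of 0.345, and the two-sided exact permutation test of log2 CPM gave p = 0.0584, where 0.00216 is the smallest p that this design allows. The highest levels of Sfrp1, 6.16 and 5.78 CPM, were those of AAV-GFP-2011 and AAV-GFP-2014, the mice with the fewest lymphoid marker reads. Both mice also had the highest mean log2 CPM of the adipocyte markers (11.66 and 11.73), and AAV-GFP-2011 had the lowest RNA integrity number, 5.7. Without these mice the log2 fold change of Sfrp1 was -0.24 (edgeR, adjusted p = 0.892), and it was -0.16 with the lymphoid score as a covariate (edgeR, adjusted p = 0.870). With RNA integrity as a covariate the log2 fold change of Sfrp1 was -0.38 (edgeR, adjusted p = 0.651). The parts of lymphoid transcripts, adipocyte transcripts and RNA integrity in the result were not tested further. The unadjusted call of Sfrp1 was lost in 8 of 12 fits without 1 mouse (AAV-GFP-2011, AAV-GFP-2012, AAV-GFP-2014, AAV-GFP-2022, AAV-Notum-2031, AAV-Notum-2033, AAV-Notum-2034 or AAV-Notum-2041), and over all 12 its log2 fold change ran from -0.61 to -0.38.

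Sfrp2 and Sfrp4 showed wide spread between mice and no difference past the test. Sfrp2 (ENSMUSG00000027996, chromosome 3, 83766321 to 83774316), a frizzled-related protein that adipose fibroblasts and fat tissue are known to release, ran from 3.47 to 14.0 CPM in AAV-GFP mice with a median of 9.01, and from 4.57 to 12.0 CPM in AAV-Notum mice with a median of 9.01. The AAV-Notum range lay inside the AAV-GFP range. The means were 8.63 ± 4.15 CPM and 8.73 ± 2.69 CPM (SD, n = 6 each). In log2 terms the difference was 0.02 with a 95% interval from -0.72 to 0.76 (adjusted p = 0.983 from edgeR), so a change of the size seen for Dkk2 lies inside the interval. The normalized table of the study rests on 1421 reads of Sfrp2 where the raw table holds 1833, and for the other tested members on 99.3 to 104% of the raw reads. The exons of Sfrp2 share 347 bases with the antisense gene Gm26771, which had 0 to 14 reads per mouse, and whether strand was used in counting is not given in the sources used here. Sfrp4 (ENSMUSG00000021319, chromosome 13, 19623104 to 19632994), another frizzled-related protein, ran from 1.01 to 6.01 CPM in the AAV-GFP group and from 2.43 to 4.98 CPM in AAV-Notum mice. Its medians were 3.18 and 3.64 CPM, and again the AAV-Notum mice lay within the range of the AAV-GFP mice. The log2 fold change of Sfrp4 was 0.17 (95% interval -0.57 to 0.90, adjusted p = 0.799 from edgeR).

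Frzb was measured with few reads. Frzb (ENSMUSG00000027004, chromosome 2, 80411970 to 80447625), which encodes the frizzled-related protein also called SFRP3, had 1 to 22 reads per mouse. It ran from 0.119 to 1.11 CPM in the AAV-GFP group and from 0.0615 to 1.12 CPM in AAV-Notum mice, and 3 mice had no more than 2 reads. In AAV-GFP-2011, AAV-GFP-2012 and AAV-GFP-2014 it was at 0.119 to 0.392 CPM, and in the other 3 AAV-GFP mice at 0.738 to 1.11 CPM. Its log2 fold change was -0.0086, with a 95% interval from -1.36 to 1.34 (adjusted p = 0.995 from edgeR).

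Sfrp5 (ENSMUSG00000018822, chromosome 19, 42197971 to 42202252), the SFRP family gene that is not among the 10, encodes a protein that adipocytes are known to release. It ran from 3.63 to 50.8 CPM in the AAV-GFP group and from 2.85 to 6.86 CPM in AAV-Notum mice. Of the AAV-GFP mice 5 were above every AAV-Notum mouse, and AAV-GFP-2022, with 3.63 CPM, lay among them. Sfrp5 had a log2 fold change of -2.72 with a standard error of 0.55. The exact permutation test gave p = 0.0108, edgeR an adjusted p of 0.102 and DESeq2 an adjusted p of 4.75e-05. The 95% interval of Sfrp5, from -3.91 to -1.52, lies below those of Sfrp1, Sfrp2, Sfrp4 and Frzb, whose lowest bound was -1.36, but the difference between the genes was not tested. The mice with the fewest lymphoid reads had the highest Sfrp5 (50.8 CPM in AAV-GFP-2011, 47.7 in AAV-GFP-2014), and AAV-GFP-2021 had 35.9 CPM with a lymphoid sum of 1163 CPM. Without the first 2 of these mice the log2 fold change of Sfrp5 was -2.01, and with the lymphoid score as a covariate it was -1.81 (edgeR, adjusted p = 0.314). AAV-GFP-2011 and AAV-GFP-2014 were also the highest in adipocyte markers (mean log2 CPM 11.66 and 11.73). The parts of the lymphoid and adipocyte transcripts in the Sfrp5 values were not tested further.

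Among the Dickkopf genes, Dkk2 and Dkk3 had means on opposite sides. Dkk2 (ENSMUSG00000028031, chromosome 3, 132085292 to 132180304) encodes a ligand of LRP5 and LRP6 that can block or, in some settings, favour Wnt signalling. Its level ran from 2.16 to 4.93 CPM in AAV-GFP mice with a median of 3.19, and from 1.66 to 4.01 CPM in AAV-Notum mice with a median of 2.05. In the AAV-Notum group 5 mice had less than the mean of the AAV-GFP group and 3 had less than its lowest mouse, while AAV-Notum-2042 was above all AAV-GFP mice but AAV-GFP-2011. The means were 3.25 ± 0.94 CPM and 2.37 ± 0.90 CPM (SD, n = 6 each). The difference in log2 was -0.46 (standard error 0.26, 95% interval -1.01 to 0.10), with an adjusted p of 0.415 from edgeR and an exact permutation p of 0.102. Without AAV-GFP-2011, the mouse with the most Dkk2, it was -0.30 (edgeR, adjusted p = 0.691), and without AAV-Notum-2042 it was -0.67 (edgeR, adjusted p = 0.170). AAV-Notum-2042 also had the highest skeletal muscle marker sum, 3754 CPM against 7.07 to 802 CPM in the other mice, and the part of muscle in its Dkk2 level was not tested. Dkk2 had a log2 fold change of -0.25 with RNA integrity as a covariate (edgeR, adjusted p = 0.728) and of -0.25 with the lymphoid score as one (edgeR, adjusted p = 0.843).

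Dkk3 (ENSMUSG00000030772, chromosome 7, 112116017 to 112159057) encodes the most divergent Dickkopf protein, whose relation to LRP6 is less settled. It had the second largest log2 fold change of the members. Its level ran from 0.894 to 4.62 CPM in AAV-GFP mice with a median of 2.65, and from 2.65 to 6.17 CPM in AAV-Notum mice with a median of 4.94. Each of the 6 mice given Notum exceeded the mean of the AAV-GFP group, and 3 exceeded its highest mouse. The means were 2.65 ± 1.61 CPM and 4.67 ± 1.45 CPM (SD, n = 6 each). Dkk3 thus had a log2 fold change of 0.81 (standard error 0.40, 95% interval -0.06 to 1.69), with an adjusted p of 0.373 from edgeR and an exact permutation p of 0.0628. The AAV-GFP mice fell into a low and a high set. AAV-GFP-2011, AAV-GFP-2012 and AAV-GFP-2014 had 1.23, 1.55 and 0.894 CPM, and the other 3 AAV-GFP mice had 3.75 to 4.62 CPM. The low set had adipocyte marker means of 11.5 to 11.7 log2 CPM, against 10.6 to 11.4 in the other 3 AAV-GFP mice. The low set is also the 3 mice lowest in lymphoid markers. Without them the log2 fold change of Dkk3 was 0.20 (edgeR, adjusted p = 1.00), a fit chosen with the values known. It was 0.24 with the lymphoid score as a covariate (edgeR, adjusted p = 0.821).

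Dkk1 (ENSMUSG00000024868, chromosome 19, 30545863 to 30549665), the classical blocker of LRP5 and LRP6, was at the limit of detection. It had 2 reads in all 12 mice together, 1 in AAV-GFP-2014 and 1 in AAV-Notum-2032. The other 10 mice had 0 reads, which allows up to 0.138 to 0.199 CPM per mouse by counting error alone. Dkk1 did not pass the filter on low counts, and no fold is given for it.

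Wif1 (ENSMUSG00000020218, chromosome 10, 121033960 to 121100650), which encodes a secreted protein that binds Wnt proteins through its WIF domain, showed the largest log2 fold change among the 8 tested. It was also among the weakest measured, with 3 to 27 reads per mouse. Its level ran from 0.179 to 0.995 CPM in AAV-GFP mice with a median of 0.457, and from 0.453 to 1.79 CPM in AAV-Notum mice with a median of 0.919. In the AAV-Notum group 5 mice exceeded the mean of the AAV-GFP group and 2 exceeded its highest mouse. The means were 0.541 ± 0.341 CPM and 1.02 ± 0.517 CPM (SD, n = 6 each). For Wif1 the log2 fold change was 0.89 (standard error 0.45, 95% interval -0.09 to 1.88), with an adjusted p of 0.382 from edgeR and an exact permutation p of 0.0887. The same 3 AAV-GFP mice that were low for Frzb and Dkk3 were low for Wif1, with 0.280, 0.179 and 0.298 CPM in AAV-GFP-2011, AAV-GFP-2012 and AAV-GFP-2014 and 0.616 to 0.995 CPM in the other 3. Without them the log2 fold change of Wif1 was 0.29, and it was 0.39 with the lymphoid score as a covariate. The parts of the lymphoid and adipocyte transcripts in the Dkk3 and Wif1 differences were not tested further.

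**Figure D2:**
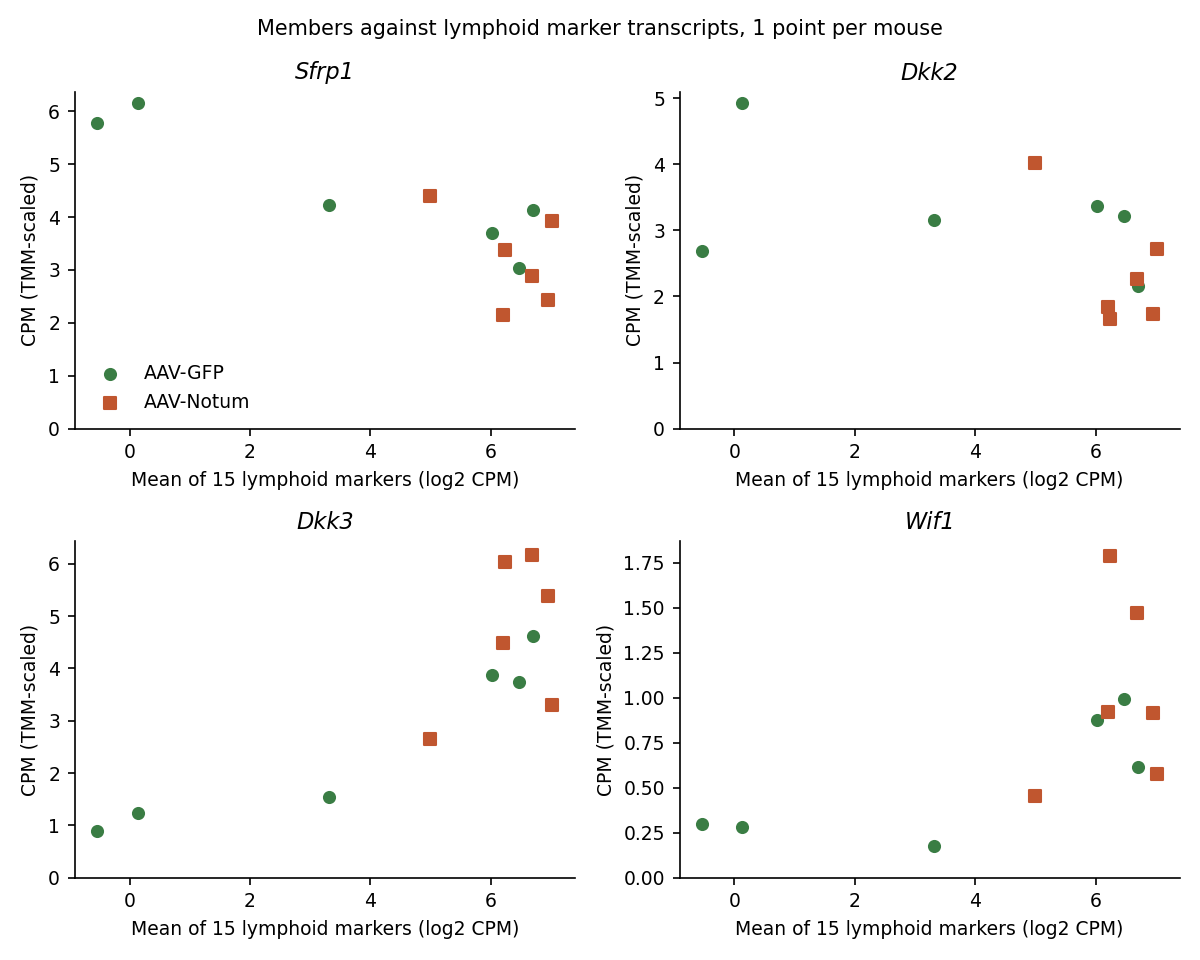
CPM of Sfrp1, Dkk2, Dkk3 and Wif1 (vertical axes) against the mean log2 CPM of 15 lymphoid marker genes (horizontal axes), with 1 point per mouse, circles for 6 AAV-GFP and squares for 6 AAV-Notum mice. The 3 AAV-GFP mice at scores of -0.53, 0.13 and 3.32 hold the lowest Dkk3 and Wif1 levels, and the other 9 mice have higher scores, up to 7.02.

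Sost and Sostdc1 are related genes. Sost (ENSMUSG00000001494, chromosome 11, 101962458 to 101967015), the sclerostin gene that osteocytes of bone are known to express, had 5 reads in all, 1 in AAV-GFP mice and 4 in AAV-Notum mice, with at most 2 in a mouse. None of the 6 osteoblast and cartilage markers passed the filter in this tissue. Sostdc1 (ENSMUSG00000036169, chromosome 12, 36314139 to 36318452) was transcribed at 1.13 to 2.75 CPM in the AAV-GFP group and at 0.928 to 2.98 CPM in AAV-Notum mice, with medians of 1.55 and 1.60 CPM. The AAV-GFP range lay inside the AAV-Notum range. The log2 fold change of Sostdc1 was 0.0084 (95% interval -0.62 to 0.64, adjusted p = 0.990 from edgeR), which leaves room for a change in either direction as large as that of Dkk2.

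**Figure D3:**
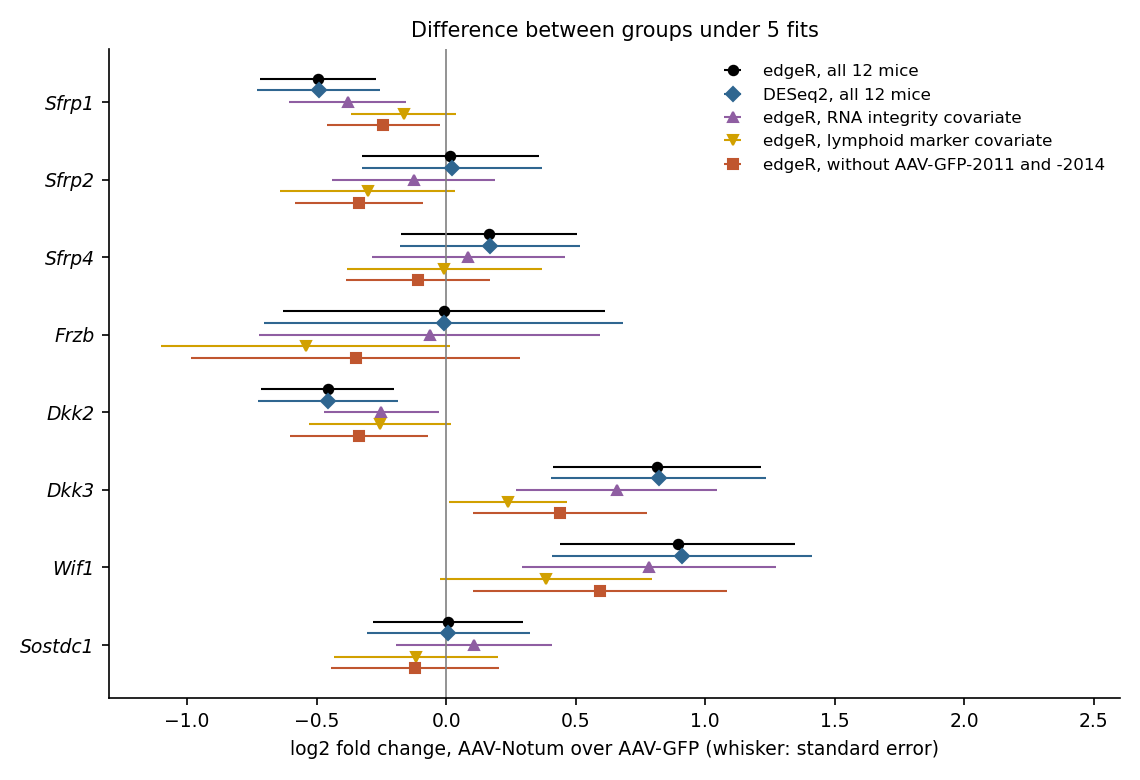
log2 fold change of each tested antagonist, AAV-Notum over AAV-GFP (horizontal axis), in 5 fits named in the legend, with the standard error as a whisker. For Sfrp1, Dkk2, Dkk3 and Wif1 the estimates with the lymphoid covariate (-0.16, -0.25, 0.24 and 0.39) lie nearer 0 than those of the edgeR fit on all 12 mice (-0.49, -0.46, 0.81 and 0.89). The same holds for Sfrp4 (-0.0066 against 0.17). For Frzb (-0.54 against -0.0086), Sfrp2 (-0.30 against 0.02) and Sostdc1 (-0.12 against 0.0084) they lie further from 0.

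Per kilobase of exon, Sfrp2 had the highest mean of the 10 members in either group. Its level in AAV-GFP mice was 4.01 ± 1.93 RPKM (CPM divided by the exon length in kilobases; SD, n = 6), and each of these mice had more of it (1.61 to 6.50) than any AAV-GFP mouse had of Sfrp1 (0.696 to 1.41), next in the order. Sfrp1 (1.03 RPKM), Sostdc1 (0.936), Dkk2 (0.878), Dkk3 (0.790) and Sfrp4 (0.784) followed in AAV-GFP mice and did not differ from their neighbours in the order beyond their spread. Wif1 (0.223 RPKM) and Frzb (0.173) were lower and also overlapped, and Sost (0.0048) and Dkk1 (0.0041) rested on 1 read each. In AAV-Notum mice Sfrp2 was at 4.06 ± 1.25 RPKM, and Dkk3, the fifth in AAV-GFP mice, was next with 1.39 ± 0.43 RPKM. Sostdc1 (0.942), Sfrp4 (0.881), Sfrp1 (0.731) and Dkk2 (0.640) came after it. On this scale Sfrp5 was at 14.5 ± 10.5 RPKM in AAV-GFP mice, above every member's mean.

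**Figure D4:**
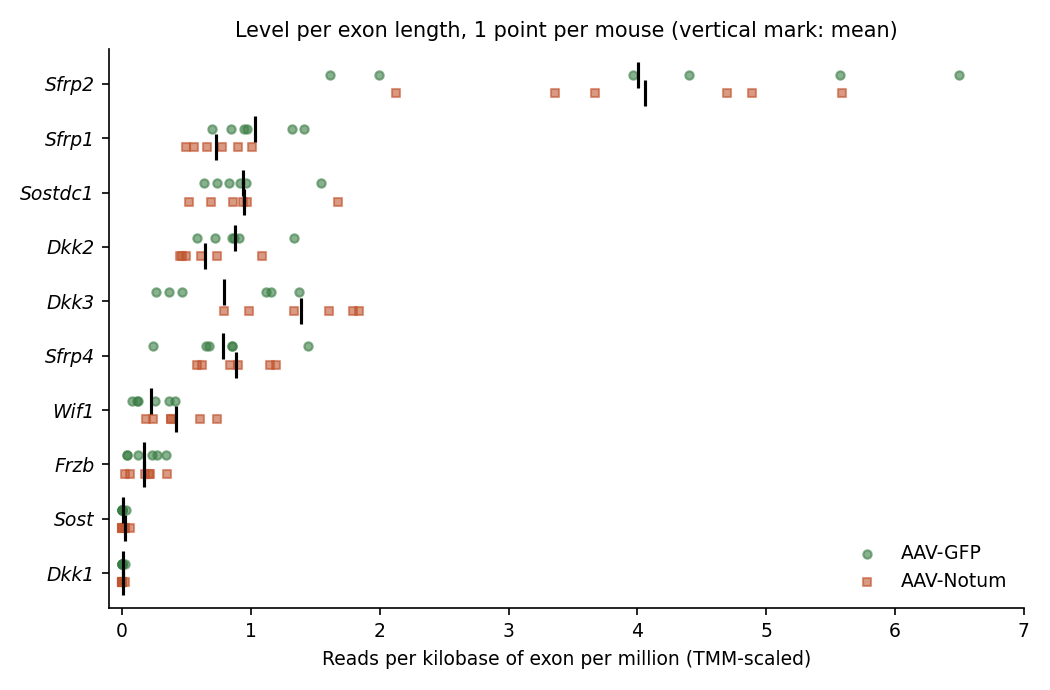
Level of the 10 antagonists in RPKM (horizontal axis, linear), with 1 point per mouse, circles for AAV-GFP and squares for AAV-Notum, and a vertical mark at each group mean; genes are ordered by the AAV-GFP mean. Sfrp2, at means of 4.01 and 4.06, is set apart from the other 9.

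The receptors of the Dickkopf and sclerostin proteins are background to these values. Lrp6, the co-receptor that DKK1, DKK2 and sclerostin bind, ran from 167 to 250.1 CPM in the AAV-GFP group and from 125 to 180 CPM in AAV-Notum mice, and 5 of the 6 mice given Notum had less than the lowest of the AAV-GFP group. Its log2 fold change was -0.54 (exact permutation p = 0.00649, edgeR adjusted p = 0.142). Lrp5, the other co-receptor, had means of 112 ± 26.8 CPM and 80.8 ± 13.1 CPM (SD, n = 6 each), a log2 fold change of -0.47 (exact permutation p = 0.0346, edgeR adjusted p = 0.236). Kremen1, a receptor that takes up LRP6 with bound DKK1, had a log2 fold change of -0.17 (adjusted p = 0.373 from edgeR), and Lrp4, which binds sclerostin and SOSTDC1, had 0.03 (adjusted p = 0.960 from edgeR). Kremen2, a relative of Kremen1, had 0 to 13 reads per mouse and did not pass the filter, with means of 0.232 and 0.550 CPM (exact permutation p = 0.0108).

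The rest of the pathway was summarised by lists, in which no gene had an adjusted p under 0.05 by edgeR. DESeq2 called 6 of these list genes, Sfrp5, Fzd1, Fzd4, Lrp6 and Nkd1 as lower and Notum as higher, of which Fzd4, a Frizzled receptor, had an adjusted p of 0.0428, beside 3.47% of all genes called. None of them was called by limma-voom, and the higher mean of Notum rests on AAV-Notum-2032 and AAV-Notum-2041. The counts that follow are those of edgeR, and at an unadjusted p under 0.05 they stand beside 9.54% of all genes lower and 4.64% higher. Of the 8 tested extracellular inhibitors outside the 10 members, 1 was lower (Sfrp5) and 1 higher (Notum) at an unadjusted p under 0.05, and their median log2 fold change was -0.17, beside 0.01 for all genes. Of 19 Wnt ligand genes 8 passed the filter and none of these passed the unadjusted threshold. The ligand with the smallest p, Wnt9a, had a log2 fold change of -0.53 (adjusted p = 0.382 from edgeR). Of the 8 tested Frizzled genes, 3 were lower and 0 higher at an unadjusted p under 0.05 (median log2 fold change -0.25). Fzd1, a Wnt receptor and the gene with the smallest p of the list, had 46.9 CPM on average in the AAV-GFP group and 30.2 CPM in the AAV-Notum group, with groups that did not overlap (log2 fold change -0.63, adjusted p = 0.0906 from edgeR). Of the 8 tested co-receptors and Dickkopf receptors, 2 were lower at an unadjusted p under 0.05, Lrp5 and Lrp6, and 0 were higher. Of the 5 tested genes of the R-spondin axis, which enhances Wnt reception, 1 was lower, Lgr4, a receptor of R-spondins (log2 fold change -0.75, adjusted p = 0.249 from edgeR). Of the 10 tested feedback targets of β-catenin, genes that canonical Wnt signalling is known to raise, 2 were lower and 0 higher, while their median log2 fold change was 0.21. Lef1 and Tcf7, which lymphocytes are known to express, had log2 fold changes of 1.03 and 0.96 by edgeR, neither past the unadjusted threshold. With limma-voom the values were 3.004 and 2.898, both past it (adjusted p = 0.270 and 0.277), beside 9.38% of all genes higher by limma-voom. The summed level of the list was 68.8 to 104 CPM in the 3 AAV-GFP mice lowest in lymphoid markers, 228 to 366 CPM in the other 3 and 136 to 390.3 CPM in AAV-Notum mice, and the part of the lymphoid transcripts in it was not tested. The smallest p of that list belonged to Nkd1, an inhibitor induced by Wnt signalling, which had 7.28 CPM on average in the AAV-GFP group and 3.53 CPM in the AAV-Notum group (log2 fold change -1.04, adjusted p = 0.140 from edgeR).

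After the mean of each mouse's group was subtracted from log2 CPM, the pair of members that varied most alike over the 12 mice was Dkk3 and Wif1, with a Pearson correlation of 0.85. The value is a description, since the points share their libraries and the 3 AAV-GFP mice low in both genes are among them. The next pairs were Frzb with Dkk3 (0.64), Dkk2 with Sostdc1 (0.64) and Sfrp2 with Sfrp4 (0.63). Other pairs varied in opposite directions, most of all Sfrp1 with Dkk3 (-0.72) and Sfrp1 with Wif1 (-0.60). Of all genes tested, those most like Dkk3 were Pla2g2d, a secreted phospholipase A2, and Gm12972 (0.97 and 0.96). Those most like Wif1 were Hs6st1 and Brinp2 (0.89 and 0.87). For Sfrp1 they were Ntmt1 and Gm26830 (0.95 and 0.84), for Sfrp2 Trmt10c and Gpc2 (0.92 and 0.90) and for Sfrp4 Pla1a and Lrrc17 (0.95 and 0.93). For Frzb they were Mgat3 and Snrpd3 (0.90 and 0.89), for Dkk2 Mettl21a and Zfp763 (0.90 and 0.90) and for Sostdc1 Fam133b and Mphosph8 (0.95 and 0.94). They are the highest of the correlations with all tested genes over 12 mice, and these names are a description of the libraries.

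The number of reads sets only the counting part of a member's spread between mice. Counting alone would give a coefficient of variation of 8.09% for Sfrp2, at 153 reads per mouse on average, and the observed values were 48.1% in AAV-GFP and 30.8% in AAV-Notum mice. For Dkk3 counting gives 12.5%, against 60.5% in AAV-GFP and 31.1% in AAV-Notum mice. For Wif1 and Frzb, with 13.6 and 9.83 reads per mouse, counting gives 27.1% and 31.9%, against 50.6 to 63.1% and 68.2 to 73.8% observed. For Sfrp1 and Sostdc1, with 67 and 29 reads per mouse, counting gives 12.2% and 18.5%, against 27.0 to 27.2% and 34.2 to 41.9% observed. Each mouse was sequenced as a library of its own, so the observed spread holds differences between mice as well as counting.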

How the data were processed

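RNA of iWAT from 6 AAV-GFP and 6 AAV-Notum mice was sequenced by the authors as single-end TruSeq libraries. Per the labels, FastQC, STAR 2.3.1 (mm10) and DESeq2 were used; the counting program and annotation are not given in the sources used here. The deposited tables hold read counts per gene, and log2 values of counts divided by a size factor plus 1. Groups came from the labels.

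Counts were tested in R 4.3.3 with edgeR 4.0.16 (filterByExpr, minimum count 10, minimum total 15; TMM; glmQLFTest, two-sided) and Benjamini-Hochberg adjustment over 15585 genes, and the fit was tested on simulated data. Log2 CPM carry a prior count of 2. Permutation tests took all 924 assignments of mice to groups. RPKM used exon lengths of GENCODE vM21. Alternatives were DESeq2 1.42.0, limma 3.58.1, RLE size factors, 2 other filters, a robust fit, covariates, the log2 table and fewer mice.

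Named genes are the members, their partners Lrp4, Lrp5, Lrp6, Kremen1, Kremen2, Sfrp5 and Notum, the gene of smallest p in each pathway list, list genes with an adjusted p under 0.05, and the 2 genes most like each member. Members and lists were chosen with earlier results of these data known. Fzd4, Lef1, Tcf7, Gm26771 and the cell type markers named in the text were named after their values were seen. These markers are those at 0 reads, the fibroblast markers past the unadjusted threshold, and Ly6a and Dpp4. Figures used matplotlib 3.10.9 in Python 3.11.15.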

Additional observations from a re-analysis of the deposited data

Results flagged for a closer look

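In AAV-GFP-2013, Sostdc1 was at 2.75 CPM (47 reads), far from the 1.13 to 1.71 CPM of the other 5 AAV-GFP mice by Dixon's criterion at the 95% level, which chance exceeds in about 1 in 20 groups. As 20 groups were searched, about 1 such flag is expected by chance. The same criterion is met by construction where 1 mouse of a group has a read and the other 5 have 0, which says nothing about that mouse. Such single reads were those of Dkk1 in AAV-GFP-2014 (0.0596 CPM) and in AAV-Notum-2032 (0.0524 CPM), and of Sost in AAV-GFP-2012 (0.0595 CPM).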

How the results depend on the processing

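No paired analysis was possible because the mouse numbers of the 2 groups are all different. No member had an adjusted p under 0.05 in any of the alternatives that gave one (0.193 to 1.00 for Sfrp1, 0.170 to 1.00 for Dkk2, 0.170 to 1.00 for Dkk3 and 0.233 to 1.00 for Wif1, while DESeq2 gave none for Wif1 and Frzb). For Sfrp5 it ran from 4.75e-05 to 0.849, and it was under 0.05 with DESeq2 and without AAV-GFP-2022. In all alternatives Sfrp1 and Dkk2 stayed negative (log2 fold change -0.61 to -0.16 and -0.67 to -0.25) and Dkk3 and Wif1 positive (0.20 to 1.04 and 0.29 to 1.15), though Wif1 and Frzb could not be fitted with at least 10 counts in every mouse. At an unadjusted p under 0.05, 0 members were lower with no filter beyond 1 count, with either covariate (RNA integrity or the lymphoid score), without AAV-GFP-2011, AAV-GFP-2012 and AAV-GFP-2014, and without AAV-GFP-2011 and AAV-GFP-2014, the former chosen after the data were seen, where 4.06 to 5.95% of all genes were lower. On the same threshold 1 member was higher with DESeq2 (5.68% of all genes), 1 with limma-voom (9.38%) and 2 with the authors' log2 values in limma (7.38%). Leaving out 1 mouse at a time gave 0 to 2 lower and 0 to 2 higher members, beside 6.67 to 13.6% of all genes lower and 2.88 to 10.3% higher, with Dkk2 lower without AAV-Notum-2042, Dkk3 higher without AAV-GFP-2021, AAV-GFP-2022 or AAV-Notum-2042, and Wif1 higher without AAV-GFP-2013, AAV-GFP-2021 or AAV-Notum-2042.

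The members near 0 changed sign. Sfrp2 had a log2 fold change of -0.13 with RNA integrity, -0.30 with the lymphoid score, -0.20 without AAV-GFP-2011, AAV-GFP-2012 and AAV-GFP-2014 and -0.34 without the first and last of these. Sfrp4 had -0.0066 with the lymphoid score and -0.11 without AAV-GFP-2011 and AAV-GFP-2014. Frzb had 1.7e-04 with limma-voom, 0.0073 with no filter beyond 1 count and 0.0043 with the authors' log2 values, and stayed negative at -0.54 with the lymphoid score, -0.69 without AAV-GFP-2011, AAV-GFP-2012 and AAV-GFP-2014 and -0.35 without the first and last of these. Sostdc1 had -0.023 with limma-voom, -0.12 with the lymphoid score, -0.12 without AAV-GFP-2011 and AAV-GFP-2014, -0.25 without AAV-GFP-2011, AAV-GFP-2012 and AAV-GFP-2014 and -0.0028 with the authors' log2 values. Over the 12 fits without 1 mouse, the ranges were -0.15 to 0.21 for Sfrp2, -0.021 to 0.43 for Sfrp4, -0.35 to 0.29 for Frzb and -0.23 to 0.21 for Sostdc1. The cause was not tested. By the length of the longest transcript, Sfrp4 came before Dkk3 in AAV-GFP mice (0.809 against 0.790 RPKM). At this depth Dkk1 and Sost had too few reads to be tested, and Frzb and Wif1 had under 30 reads per mouse.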
